A study of Mus musculus with 12 samples.

Results

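The genes described here are 8 factors that act on RNA while immunoglobulin messages are made, out of 27179 genes in the deposited count table. They were chosen by name, with earlier results of these data known. The rule that reads them from the table, by Entrez gene ID, uses no measured value. They are the elongation factors Ell, Ell2 and Ell3, the cleavage stimulation factor subunits Cstf1, Cstf2 and Cstf3, the cleavage factor Pcf11, and the splicing regulator Hnrnpll. All 8 passed the filter on low counts. RNA-Seq followed mouse splenic B cells from rest to antibody secretion in 12 libraries, 2 for each of 6 stages. The labels give the strain as C57BL/6 and the study's methods as C57BL/6 Pep3b, from males of 6 to 12 weeks, with no transgene or deletion named in the labels. Naive B cells were sorted on markers that included TCRβ-, B220+, IgM+ and high IgD and received no treatment. All other cells were isolated by negative selection and cultured with lipopolysaccharide (LPS), a ligand of Toll-like receptors, at 25 µg/ml. By the study's methods, the day 4 cultures had a lower cell density than those sorted up to 33 h, and the part of density was not tested. At 3, 10 and 33 h, activated cells that had not divided were sorted on markers that included TCRβ- and CD69+, with the highest level of CTV, a dye that division dilutes. On day 4, the cultures were sorted into expanded B cells, which carry CD22 but not CD138, and plasmablasts, which carry CD138 but not CD22. The libraries are biological duplicates by the study's methods, and the number of mice behind each was not given in the sources used here, so the p-values measure the spread between these libraries.

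A B cell makes membrane and secreted forms of its heavy chain from the same gene, by a choice between splicing to the membrane exons and cleavage and polyadenylation at a promoter-proximal site. ELL proteins keep RNA polymerase II from pausing, and ELL2 is known in plasma cells for favouring the proximal site. CstF binds the region downstream of a cleavage site, PCF11 couples cleavage to termination, and hnRNP LL is known in lymphocytes for regulating the variable exons of Ptprc, which encodes CD45, and is linked to the same choice in heavy chain messages. The values here are counts per gene, so isoforms and cleavage sites were not analysed here.

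Total counts ran from 23026619 to 60585587 per library. Summed B cell markers (Ms4a1, Cd79a, Cd79b, Cd22 and Pax5) held between 1761 and 8958 CPM (counts scaled to library size), and plasmablast markers (5 of 5) held at most 389 CPM in naive cells and at least 16396 CPM in plasmablasts. The plasmablast sum was also at 2684 and 2092 CPM at 3 h, against 2191 and 2536 CPM in expanded cells. In plasmablasts, Jchain alone held 12638.5 and 11733 CPM of it. The markers of T cells summed to at most 7.75 CPM and those of NK cells to at most 8.12 CPM. Myeloid markers summed to 265 and 112 CPM and erythroid markers to 196 and 146 CPM in the naive libraries, and to at most 24.4 and 2.11 CPM in all later libraries, where the myeloid markers Mpo and S100a8 were at 0 in both libraries of every stage. The lists held 6 T cell, 3 NK cell and 7 myeloid markers, all in the table, and 6 erythroid markers, of which 5 were.

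The 3 ELL paralogues moved apart, and the windows upstream of their starts are shown because they are the stretches of DNA at which the genes that rose and fell can be compared. Ell lies on chromosome 8 (70539675 to 70592858, plus strand), Ell2 on chromosome 13 (75707484 to 75772361, plus strand) and Ell3 on chromosome 2 (121439027 to 121442601, minus strand) of GRCm38.p6, the assembly that mm10 represents. The windows are the 250 bases before each start as RefSeq gives it, read 5′ to 3′ on the strand of the gene, at chr8:70539425-70539674 (plus), chr13:75707234-75707483 (plus) and chr2:121442602-121442851 (minus). Capitals mark matches, on either strand, to the letters searched for.
Ell: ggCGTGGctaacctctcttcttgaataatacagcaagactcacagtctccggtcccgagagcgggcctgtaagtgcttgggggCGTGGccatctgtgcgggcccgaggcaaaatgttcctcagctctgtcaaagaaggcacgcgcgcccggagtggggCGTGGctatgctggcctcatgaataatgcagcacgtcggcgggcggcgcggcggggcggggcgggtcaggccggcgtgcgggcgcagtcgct
Ell2: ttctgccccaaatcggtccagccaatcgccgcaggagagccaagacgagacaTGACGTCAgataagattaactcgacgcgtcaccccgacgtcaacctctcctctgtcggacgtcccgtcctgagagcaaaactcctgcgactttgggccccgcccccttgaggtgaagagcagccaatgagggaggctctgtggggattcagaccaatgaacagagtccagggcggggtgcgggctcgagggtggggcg
Ell3: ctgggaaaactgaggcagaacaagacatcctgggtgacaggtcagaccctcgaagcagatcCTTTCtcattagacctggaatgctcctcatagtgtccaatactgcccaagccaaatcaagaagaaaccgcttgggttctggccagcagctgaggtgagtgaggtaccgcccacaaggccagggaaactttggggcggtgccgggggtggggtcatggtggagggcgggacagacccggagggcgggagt

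The letters searched were TGACGTG (an element bound by XBP1 and ATF6), CCACG (a partial ER stress element), GAAAG (the core of the BLIMP1 motif), CACGTG (the E-box of MYC and MAX) and TATAAA. An added 8-base palindrome, TGACGTCA (a cyclic AMP response element), was picked after the Ell2 window had been read. The window of Ell2 held none of the first 5 and held TGACGTCA once, with its first base 198 bases before the start. Of 32851 windows of the same length, 1.55% held these letters. Ell held CCACG 3 times, which occurs in 28.3% of windows and overlaps no other match here. Ell3 held GAAAG once, which occurs in 51.5% of windows, and so did Cstf3 and Pcf11. Cstf1 held CACGTG once (6.02% of windows), and neither TGACGTG (1.65%) nor TATAAA (12.4%) was in any of the windows read. RefSeq windows were read for 7 of the 8 genes, all but Hnrnpll. The starts used for Cstf1 and Pcf11 lie inside the annotated spans given for these genes here, so their windows cover part of the span.

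Ell2 encodes the elongation factor that is abundant in plasma cells. Its level, in RPKM (reads scaled to exon length and to TMM-adjusted library size), was 9.76 and 9.27 in the 2 naive libraries, 29.6 and 18.5 after 3 h, and 9.37 and 9.67 after 10 h. Its later values were 15.1 and 24.6 after 33 h, with 45.6 and 53.8 for the expanded and 196 and 198 for the plasmablast libraries. Both libraries at 3 h were above both naive and both 10 h libraries, and the 10 h and naive ranges overlapped. A rise or fall is called here when edgeR's glmTreat, which tests for a change beyond 1.5-fold, gave a Benjamini-Hochberg adjusted p under 0.05 over all genes tested.

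Ell2 rose 2.51-fold from naive to 3 h (log2 difference 1.33, SE 0.24, glmTreat adjusted p = 0.0036) and fell by 1.33 on the log2 scale (SE 0.23, glmTreat adjusted p = 0.0055) from 3 h to 10 h. Without the first library at 3 h, the log2 differences were 0.96 (glmTreat adjusted p = 0.068) and -0.95 (glmTreat adjusted p = 0.10), and neither was called. The difference from 10 h to 33 h, 1.06 (SE 0.23, glmTreat adjusted p = 0.06), was not called. Without the second library at 33 h it was 0.68 (glmTreat adjusted p = 0.56). It was called without the first (1.06, glmTreat adjusted p = 0.047) or the second library at 3 h (1.08, glmTreat adjusted p = 0.043) or without the first at 33 h (1.37, glmTreat adjusted p = 0.0064). Ell2 then rose 2.51-fold into expanded cells (log2 difference 1.33, SE 0.23, glmTreat adjusted p = 0.013) and 3.97-fold into plasmablasts (log2 difference 1.99, SE 0.23, glmTreat adjusted p = 1.7e-04). The call at 33 h to expanded was lost without the first library at 33 h (1.01, glmTreat adjusted p = 0.12) or the second expanded library (1.20, glmTreat adjusted p = 0.085). From naive cells to plasmablasts the rise was 20.7-fold (log2 difference 4.37, SE 0.26, glmTreat adjusted p = 6.9e-08).

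The replicates of Ell2 were furthest apart at 3 h and 33 h. In the same libraries the summed plasmablast markers were 2684 and 2092 CPM at 3 h and 569 and 841 CPM at 33 h, higher in the library with more Ell2 each time. Among these markers, Jchain was at 31.0 and 39.9 CPM at 3 h, lower in the library with more Ell2, and at 14.5 and 19.2 CPM at 33 h. Over all genes with enough counts, replicates also differed most at 3 h and 33 h. The chi-square of their counts per degree of freedom was 65.3 and 55.7 there. It was 23.1 at 10 h, 10 in naive cells, 9.22 in expanded cells and 9.26 in plasmablasts. The part of the markers, or of this general spread, in the spread of Ell2 was not tested. In bulk RNA, fewer cells that express a gene and less of its RNA in each cell cannot be told apart.

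**Figure D1:**
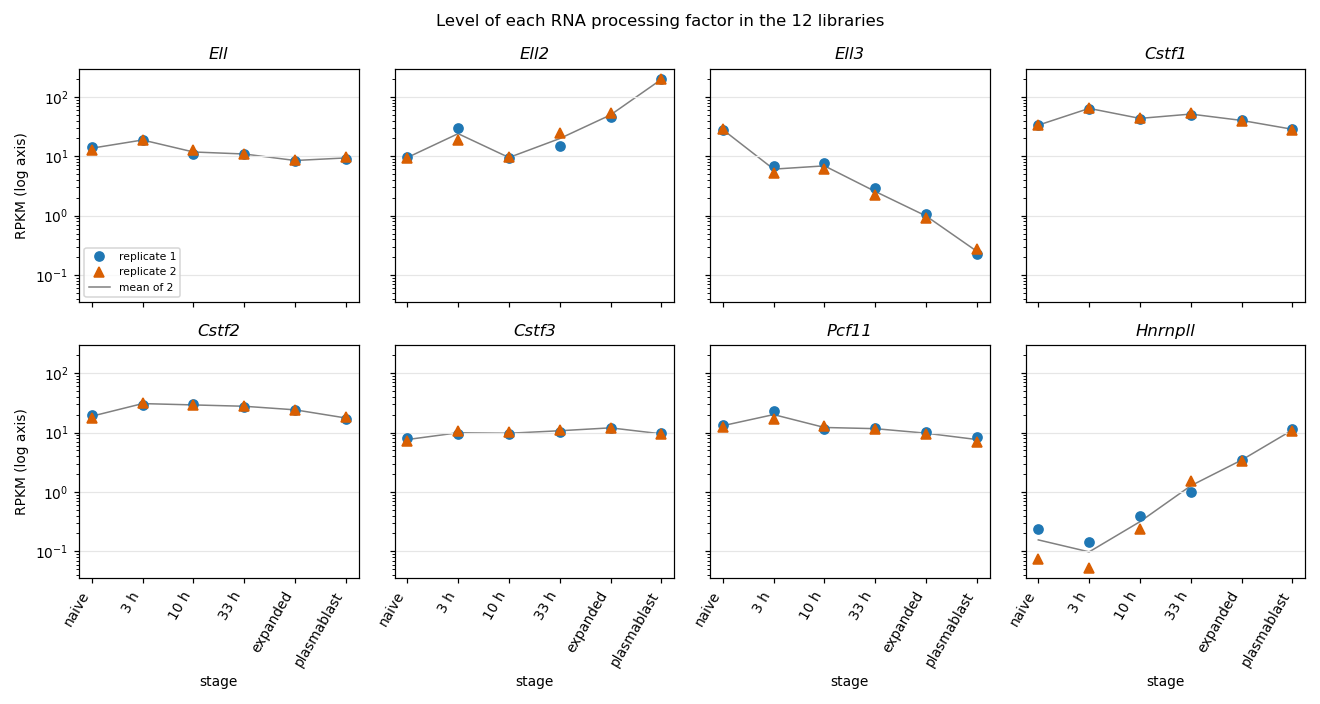
Level of each of the 8 genes (RPKM, logarithmic axis shared by all panels) by stage, with a circle for replicate 1, a triangle for replicate 2 and a line through the mean of the 2. Ell2 ends at 197 and Hnrnpll at 11.0 RPKM in plasmablasts, their highest stage, Ell3 goes from 28.1 to 0.251 RPKM, and the other 5 genes stay within 2.63-fold between their highest and lowest stage.

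Ell3, the third paralogue, went the other way. It was at 27.3 and 28.9 RPKM in naive cells, 6.99 and 5.16 after 3 h, 7.64 and 6.16 after 10 h, 2.89 and 2.22 after 33 h, 1.06 and 0.914 in expanded cells, and 0.228 and 0.274 in plasmablasts. The plasmablast libraries held 9 and 13 counts, and the sum of 22 has an exact Poisson 95% interval of 13.8 to 33.3, which covers counting error only. The naive libraries were the highest of all, and the ranges of 3 h and 10 h overlapped. Ell3 fell by 2.22 on the log2 scale from naive to 3 h (SE 0.18, glmTreat adjusted p = 8.1e-07), while from 3 h to 10 h the difference was 0.20 (SE 0.18, glmTreat adjusted p = 1). It fell by 1.42 (SE 0.18, glmTreat adjusted p = 7.2e-04) to 33 h, by 1.38 (SE 0.21, glmTreat adjusted p = 0.0044) to expanded cells, and by 1.96 (SE 0.33, glmTreat adjusted p = 0.0015) to plasmablasts. Without the first library at 33 h the fall into expanded cells was not called (-1.16, glmTreat adjusted p = 0.07). Between naive cells and plasmablasts the level fell 110-fold (log2 difference -6.79, SE 0.26, glmTreat adjusted p = 1.8e-10). The myeloid and erythroid markers were also highest in the naive libraries, and their part in the first fall of Ell3 was not tested.

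Ell, the founding member of the family, changed least of the 3. It was at 14.5 and 12.9 RPKM in naive cells, 18.7 and 18.9 after 3 h, 11.1 and 12.6 after 10 h, 11.0 and 10.8 after 33 h, 8.43 and 8.55 in expanded cells, and 9.03 and 9.74 in plasmablasts. The 3 h libraries stood above all others. glmTreat called 0 of the 5 consecutive transitions at an adjusted and 0 at an unadjusted p under 0.05, while the F-test for any change and DESeq2's Wald test each called 3. The log2 differences lay between -0.67 (3 h to 10 h, SE 0.10, glmTreat adjusted p = 0.19) and 0.46 (naive to 3 h, SE 0.10, glmTreat adjusted p = 0.91). From its highest stage, 3 h, to its lowest, expanded cells, Ell fell by 1.15 on the log2 scale (SE 0.10, glmTreat adjusted p = 3.8e-05), a comparison in which 22.4% of all tested genes were called lower and 27% higher. This pair was picked from the same levels for being the extremes, and its p-value is not adjusted for that choice. The same holds for the highest and lowest stages compared below for Hnrnpll, Cstf1, Cstf2, Cstf3 and Pcf11.

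Per length of exon, the make-up of the family turned over. Ell3 gave 53.0% and 56.6% of the summed RPKM of the 3 paralogues in the naive libraries, Ell 28.1% and 25.2%, and Ell2 18.9% and 18.2%. At 10 h the largest share was that of Ell, 41.8% ± 3.44 (SD, n = 2), with 33.7% ± 0.462 for Ell2 and 24.4% ± 3.90 for Ell3. Ell2 gave 48.5% ± 7.07 after 3 h, 58.7% ± 9.34 after 33 h, 83.9% ± 1.61 in expanded cells and 95.3% ± 0.210 in plasmablasts (SD, n = 2 at each stage). In plasmablasts Ell gave 4.53% ± 0.196 and Ell3 0.121% ± 0.0146 (SD, n = 2). The level of Ell2 relative to Ell3 was 0.357 and 0.321 in the naive libraries and 862 and 725 in plasmablasts. With 2 libraries a stage the smallest p that an exact two-sided permutation test allows is 0.333, and the shares were not tested.

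**Figure D2:**
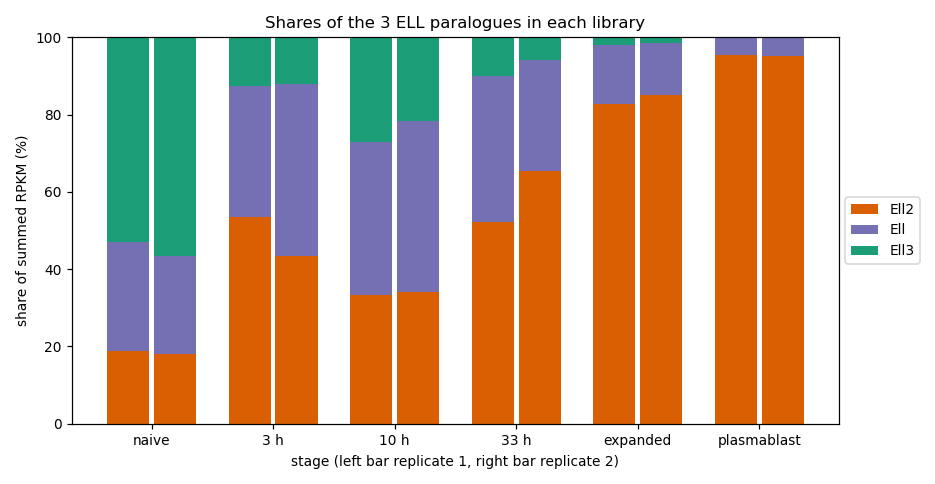
Share of the summed RPKM of Ell, Ell2 and Ell3 (%) held by each paralogue, with 1 bar per library and the 2 replicates of a stage side by side. The Ell3 part is 53.0% and 56.6% in naive cells and 0.111% and 0.131% in plasmablasts, where the Ell2 part is 95.5% and 95.2%.

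Hnrnpll (chromosome 17, 80029487 to 80062268) encodes a splicing regulator related to hnRNP L. It was near the limit of detection early on, at 0.237 and 0.0747 RPKM in naive cells (25 and 6 counts) and 0.143 and 0.0527 after 3 h (8 and 5 counts). It was at 0.394 and 0.238 RPKM at 10 h, 1.0 and 1.54 after 33 h, 3.50 and 3.38 in expanded cells, and 11.3 and 10.8 in plasmablasts. The 4 naive and 3 h libraries overlapped, and from 10 h each stage lay above the one before it. The difference from naive to 3 h, -0.91 on the log2 scale (SE 0.66, glmTreat adjusted p = 0.41), was not called.

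Hnrnpll rose by 1.87 on the log2 scale from 3 h to 10 h (SE 0.56, glmTreat adjusted p = 0.039), a call that rests on 13 counts at 3 h. That call was lost without the second library at 3 h (1.18, glmTreat adjusted p = 0.35), without the first at 10 h (1.43, glmTreat adjusted p = 0.21), or without any of the 4 libraries from day 4 (glmTreat adjusted p between 0.051 and 0.057). The later rises were 3.88-fold to 33 h (1.96, SE 0.32, glmTreat adjusted p = 0.0028), 2.75-fold to expanded cells (1.46, SE 0.27, glmTreat adjusted p = 0.012) and 3.20-fold to plasmablasts (1.68, SE 0.26, glmTreat adjusted p = 0.0011). The rise into expanded cells was not called without the first library at 33 h (1.16, glmTreat adjusted p = 0.15) or without the first (1.43, glmTreat adjusted p = 0.066) or the second expanded library (1.48, glmTreat adjusted p = 0.054). From naive cells to plasmablasts the rise was 6.05 on the log2 scale (SE 0.36, glmTreat adjusted p = 1.5e-08). From 3 h, its lowest stage, to plasmablasts it was 6.96 (SE 0.41, glmTreat adjusted p = 1.1e-08), where 29.7% of all tested genes were called higher.

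Even in plasmablasts Hnrnpll was the minor gene of the pair it forms with Hnrnpl, the general splicing regulator. Its share of their summed RPKM was 0.143% ± 0.0968 in naive cells, 0.694% ± 0.0983 after 33 h, 2.15% ± 0.394 in expanded cells and 9.93% ± 0.570 in plasmablasts (SD, n = 2). Hnrnpl itself was at 98.3 and 87.5 RPKM in naive cells and 85.5 and 89.3 in plasmablasts (log2 difference -0.08, SE 0.31, glmTreat adjusted p = 1). At 3 h the Hnrnpl libraries were at 224 and 94.3 RPKM, so the pair of replicates differed more there than at any later stage. Ptprc, whose exons hnRNP LL regulates, fell from 288 and 296 RPKM in naive cells to 132 and 133 after 3 h (log2 difference -1.14, SE 0.10, glmTreat adjusted p = 2.7e-05), and was at 118 and 116 in plasmablasts. Hnrnpll was not called in that first transition, where it had only 5 to 25 counts in a library, so this decides nothing about Ptprc. The Ptprc values are totals per gene and do not show which exons were used.

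The levels of Ell2 and Hnrnpll climbed over the same late stages, and the ratio of Ell2 to Hnrnpll in RPKM was 15.1 and 16.0 after 33 h, 13.0 and 15.9 in expanded cells, and 17.4 and 18.4 in plasmablasts. Earlier it was higher, at 207 and 351 at 3 h and 23.8 and 40.7 after 10 h. Ighm, a substrate of this processing, was called higher in the same final transition (log2 difference 1.89, SE 0.13, glmTreat adjusted p = 1.4e-06), from 10556 and 12502 RPKM in expanded cells to 45558 and 40139 in plasmablasts. Of all tested genes, 13.9% were called higher there. Among other heavy chain genes, Ighg2b (1.64), Ighg3 (1.31) and Igha (2.13) were also called higher. Ighg1 (0.24) was not called, and Ighd was called lower (-2.65, SE 0.33, glmTreat adjusted p = 2.5e-04).

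Among the CstF subunits, Cstf1 (chromosome 2, 172370645 to 172382449, plus strand), the WD-repeat subunit, was at 33.4 and 33.5 RPKM in naive cells, 61.9 and 66.1 after 3 h, 42.8 and 44.1 after 10 h, 48.7 and 54.0 after 33 h, 40.5 and 39.8 in expanded cells, and 29.2 and 27.8 in plasmablasts. The 3 h libraries stood above all others. Cstf1 rose 1.91-fold from naive to 3 h (log2 difference 0.94, SE 0.09, glmTreat adjusted p = 4.7e-04), its only called transition. It fell 2.25-fold from 3 h to plasmablasts (log2 difference -1.17, SE 0.09, glmTreat adjusted p = 4.7e-06), a comparison in which 27.2% of all tested genes were called lower.

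The annotated span of Cstf1 overlaps that of Aurka, a mitotic kinase, by 242 bases, and whether strand was used in the counting was not given in the sources used here. Aurka was at 1.77 and 1.67 RPKM at 3 h, its lowest stage, when Cstf1 was highest. It was at 4.42 and 3.97 RPKM at 10 h and 25.8 and 49.7 at 33 h, where Cstf1 was also higher than at 10 h (log2 difference 0.24, F-test adjusted p = 0.035, glmTreat adjusted p = 1) and the second library was the higher for both genes. In expanded cells Aurka was at 59.3 and 59.7 RPKM, its highest stage. Cstf1 was lower there than at 33 h (log2 difference -0.35, F-test adjusted p = 0.0053), a difference that glmTreat did not call. In plasmablasts, the lowest stage of Cstf1, Aurka was at 46.0 and 46.0 RPKM. Reads shared by the pair cannot be told apart in these counts, and their part in the levels of Cstf1 was not tested.

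Cstf2 (chromosome X, 134059176 to 134086822, plus strand) encodes the subunit that contacts the RNA. The X-linked genes had been removed before testing after the study's methods, so its tests come from the same fit with the removed classes kept, over 13854 genes in place of 12750. It was at 19.9 and 17.8 RPKM in naive cells, 29.6 and 31.8 after 3 h, 29.6 and 28.7 after 10 h, 27.2 and 28.1 after 33 h, 24.3 and 23.9 in expanded cells, and 17.0 and 18.1 in plasmablasts. All libraries from 3 h to expanded cells were above those of naive cells and plasmablasts, and the naive and plasmablast ranges overlapped. The difference from naive to 3 h, 1.63-fold (log2 difference 0.71, SE 0.09), missed the threshold (glmTreat adjusted p = 0.061). It was called without the first naive library (0.79, glmTreat adjusted p = 0.029) or the first at 3 h (0.79, glmTreat adjusted p = 0.016). Over the 5 transitions glmTreat called 0 at an adjusted and 1 at an unadjusted p under 0.05, and the F-test and DESeq2's Wald test each called 2. Cstf2 fell 1.75-fold from 3 h to plasmablasts (log2 difference -0.81, SE 0.09, glmTreat adjusted p = 0.0055), against 26.6% of all genes called lower in that fit.

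Cstf2t, the intronless paralogue of Cstf2, was lower in plasmablasts than in naive cells (log2 difference -0.92, SE 0.09, glmTreat adjusted p = 8.6e-04), from 17.6 and 16.4 to 8.70 and 9.12 RPKM. The share of Cstf2 in the pair was 52.5% ± 0.692 in naive cells, 54.8% ± 3.57 after 3 h, 60.5% ± 0.868 after 10 h, 67.1% ± 0.412 after 33 h, 68.0% ± 0.187 in expanded cells and 66.3% ± 0.211 in plasmablasts (SD, n = 2). Whether reads of these paralogues were split between them was not tested. Nox1 and Mir3112, which overlap the span of Cstf2, had at most 97 and 62 counts in a library, against at least 2002 for Cstf2.

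Cstf3 (chromosome 2, 104590484 to 104665425, plus strand), the scaffold subunit, had the smallest ratio of its highest to its lowest stage among the 8. It was at 8.09 and 7.14 RPKM in naive cells, 9.30 and 10.5 after 3 h, 9.35 and 10.1 after 10 h, 10.3 and 11.1 after 33 h, 11.9 and 12.1 in expanded cells, and 9.72 and 9.27 in plasmablasts. The naive libraries were the lowest and the expanded ones the highest, 1.57-fold apart (log2 difference 0.65, SE 0.10, glmTreat adjusted p = 0.18). Of the 15 pairs of stages, glmTreat called 0 at an adjusted and 0 at an unadjusted p under 0.05, and the F-test called 8. DESeq2's Wald test called 2 of the 5 consecutive transitions.

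Pcf11 (chromosome 7, 92643458 to 92670080, minus strand), a subunit of the cleavage factor that binds the polymerase tail, was at 13.6 and 12.5 RPKM in naive cells, 22.9 and 17.2 after 3 h, 11.6 and 12.7 after 10 h, 11.7 and 11.5 after 33 h, 10.0 and 9.45 in expanded cells, and 8.41 and 6.82 in plasmablasts. The 3 h libraries were the highest and differed from each other more than those of any other stage. glmTreat called 0 of the 5 consecutive transitions at an adjusted and 0 at an unadjusted p under 0.05, while the F-test called 3 and DESeq2's Wald test 2. The log2 difference was 0.62 (SE 0.13, glmTreat adjusted p = 0.32) from naive to 3 h and -0.72 (SE 0.13, glmTreat adjusted p = 0.15) from 3 h to 10 h. Without the second library at 3 h these were 0.79 (glmTreat adjusted p = 0.037) and -0.90 (glmTreat adjusted p = 0.0082), and both were called. Without the first library at 3 h the difference from naive to 3 h was 0.40 (glmTreat adjusted p = 1). Pcf11 fell 2.63-fold from 3 h to plasmablasts (log2 difference -1.39, SE 0.14, glmTreat adjusted p = 1.6e-05). Its difference from naive cells to plasmablasts, -0.78 (SE 0.14, glmTreat adjusted p = 0.055), was called without the first (-0.77, glmTreat adjusted p = 0.021) or the second library at 3 h (-0.81, glmTreat adjusted p = 0.010) or without the first plasmablast library (-0.93, glmTreat adjusted p = 0.016).

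Counted over the 8 genes, 2 rose and 1 fell from naive to 3 h (Ell2 and Cstf1 up, Ell3 down), where 21% of all tested genes were called higher and 24.3% lower. From 3 h to 10 h, 1 rose and 1 fell (Hnrnpll and Ell2), against 17.4% and 13.4% of all genes. From 10 h to 33 h, 1 rose and 1 fell (Hnrnpll and Ell3), against 10.1% and 4.45%. From 33 h to expanded cells, 2 rose (Ell2 and Hnrnpll) and 1 fell (Ell3), against 6.94% and 3.66%, and from expanded cells to plasmablasts the same 3 genes were called in the same directions, against 13.9% and 12.2%. Between naive cells and plasmablasts these 3 were again the ones called, against 26.6% higher and 23.4% lower among all genes. Among so few genes a single call is a large share, and these counts are a description.

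**Figure D3:**
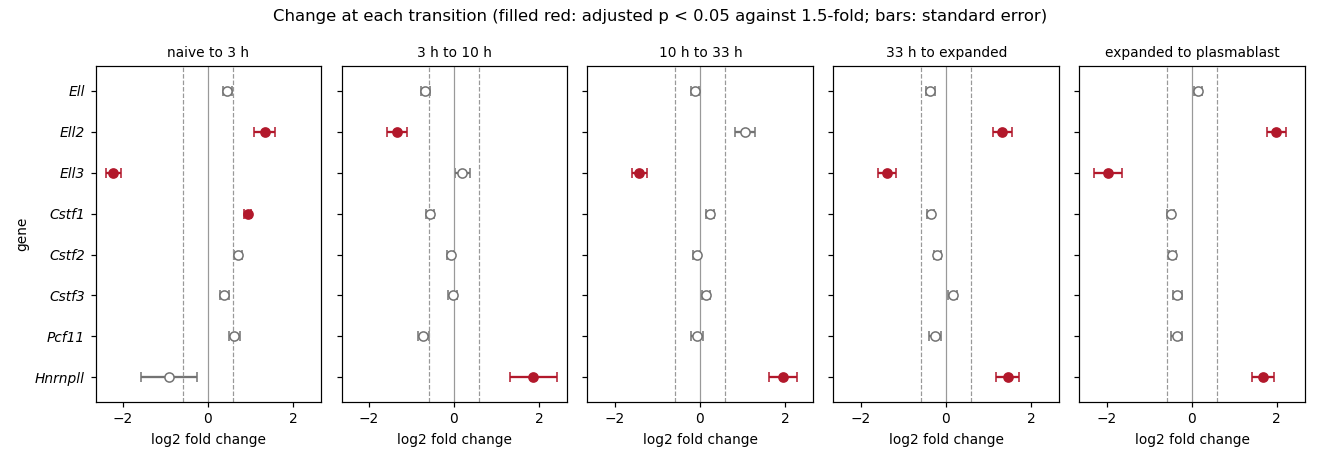
Log2 fold change of each gene at the 5 consecutive transitions, with bars for the standard error of the fit, dashed lines at 1.5-fold and filled red points for genes called by glmTreat at an adjusted p under 0.05. Ell2, Ell3 and Hnrnpll are each called at 4 of the 5 transitions, Cstf1 at naive to 3 h, and Ell, Cstf2, Cstf3 and Pcf11 have open points at all 5.

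The order of the 6 stages was read from the mean RPKM, and neighbours in it were compared by edgeR's quasi-likelihood F-test, which asks for a change of any size. That test calls many genes. Against naive cells it called 71% of all tested genes after 3 h, 67.7% after 10 h, 71% after 33 h, 73.1% in expanded cells and 74.1% in plasmablasts. Against 3 h it called 62.3% at 10 h, 70.5% at 33 h, 73.3% in expanded cells and 77.4% in plasmablasts. The shares were 45.5%, 61.7% and 72.2% for 10 h against 33 h, expanded cells and plasmablasts, 39.6% and 67.4% for 33 h against both day 4 stages, and 56.9% between those.

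For Ell2 the order from high to low was plasmablast, expanded, 3 h, 33 h, 10 h, naive. Its 3 h and 33 h levels did not pass the F-test (adjusted p = 0.31), nor did 10 h and naive (adjusted p = 1). For Ell3 it was naive, 10 h, 3 h, 33 h, expanded, plasmablast, and 10 h and 3 h were the only neighbours that did not pass (F-test adjusted p = 0.34). For Hnrnpll it was plasmablast, expanded, 33 h, 10 h, naive, 3 h, and neither 10 h and naive (F-test adjusted p = 0.079) nor naive and 3 h (F-test adjusted p = 0.23) passed.

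For Cstf1 the order was 3 h, 33 h, 10 h, expanded, naive, plasmablast, where 10 h and expanded alone did not pass (F-test adjusted p = 0.26). For Pcf11 it was 3 h, naive, 10 h, 33 h, expanded, plasmablast, and 2 of the 5 neighbouring pairs passed, 3 h above naive (F-test adjusted p = 0.001) and expanded above plasmablast (F-test adjusted p = 0.038). For Ell it was 3 h, naive, 10 h, 33 h, plasmablast, expanded, and the first pair passed (F-test adjusted p = 0.0012). For Cstf2 it was 3 h, 10 h, 33 h, expanded, naive, plasmablast, and expanded above naive passed (F-test adjusted p = 0.002). For Cstf3 it was expanded, 33 h, 3 h, 10 h, plasmablast, naive, and the last pair passed (F-test adjusted p = 0.013). Under library size alone in place of TMM, 3 of the 8 genes kept their order.

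The profile of each gene, its log2 level at the 6 stages less its mean, was compared with those of 8846 tested genes whose average log2 CPM reached 3, by the root-mean-square difference. Nearest to Ell2 were Kcnk6 (0.286), a potassium channel gene, Arfgap3 (0.336), a regulator of Golgi traffic, and Hspa13 (0.366), an HSP70 relative. Kcnk6 was at 1.80 and 1.94 RPKM at 3 h, 0.678 and 0.745 after 10 h, and 21.7 and 22.8 in plasmablasts. It was picked for likeness over these same stages, so the shared early peak follows from the choice. Nearest to Hnrnpll were Gpr55 (0.362), a G protein-coupled receptor gene, Sdf2l1 (0.395), an ER protein gene, and Plpp5 (0.478), a lipid phosphatase gene. Nearest to Ell3 were Pdcd1lg2 (0.537), the gene of PD-L2, Fcmr (0.551), the IgM Fc receptor gene, and Neurl3 (0.574).

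**Figure D4:**
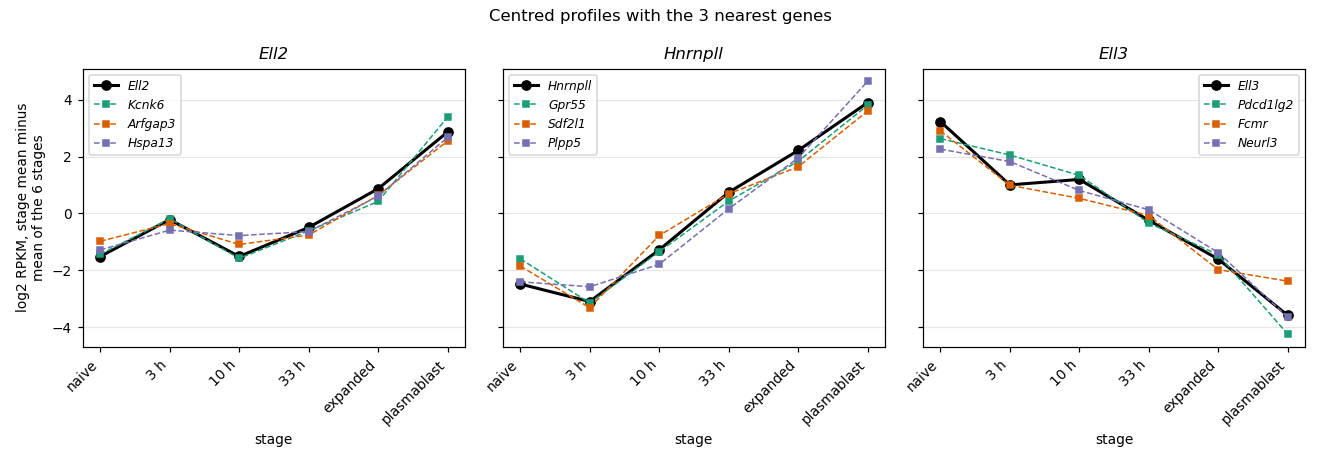
Centred profiles of Ell2, Hnrnpll and Ell3 (solid) with the 3 genes nearest to each (dashed), as the mean log2 RPKM of a stage less the mean of the 6 stages. Ell2 and its neighbours rise at 3 h, come down at 10 h and are highest in plasmablasts, and Hnrnpll and its neighbours are highest in plasmablasts with no peak at 3 h. The neighbours were picked over these same stages, so their likeness follows from the choice.

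For the other 5 genes, whose levels changed less between stages, the nearest profiles lay closer. The distance is not scaled to the size of the changes, so genes that change little tend to lie close whatever their shape. Nearest to Ell were Axin1 (0.0587), Icmt (0.0662) and Ccnt1 (0.0687), which encodes cyclin T1 of P-TEFb, and nearest to Pcf11 were Cdk9 (0.058), the kinase of P-TEFb, Prrc2b (0.0705) and Prpf38b (0.0774). Nearest to Cstf1 were Sart3 (0.0685), Fastkd5 (0.0737) and Abhd17c (0.0793), nearest to Cstf2 were Gm11793 (0.0529), Dnajb6 (0.0579) and Med21 (0.0647), and nearest to Cstf3 were Smarca4 (0.0876), Ube2l3 (0.0886) and Arl6ip6 (0.0963). Among the 8 genes themselves the closest pairs were Cstf1 with Cstf2 (0.151) and Ell with Pcf11 (0.160), and the most distant were Ell3 with Hnrnpll (4.45). Ell2 was 1.40 from Hnrnpll, 1.46 from Cstf3 and 3.57 from Ell3, with the rest between 1.68 (Cstf2) and 1.82 (Pcf11).

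Eaf1 and Eaf2 encode factors known to bind ELL proteins. Eaf2 was at 0.672 and 0.911 RPKM in naive cells, 0.632 and 1.07 after 3 h, 0.979 and 0.877 after 10 h, 3.54 and 6.03 after 33 h, 13.9 and 16.0 in expanded cells, and 106 and 107 in plasmablasts. It rose at the last 3 transitions, by 2.37 (SE 0.25, glmTreat adjusted p = 8.5e-05), 1.67 (SE 0.21, glmTreat adjusted p = 0.0011) and 2.83 (SE 0.21, glmTreat adjusted p = 1.8e-06) on the log2 scale. Its paralogue Eaf1 was at 8.58 and 8.41 RPKM in naive cells and 15.3 and 14.9 in plasmablasts (log2 difference 0.84, SE 0.11, glmTreat adjusted p = 0.011). The naive, 3 h and 10 h ranges of Eaf2 overlapped, where those of Ell2 at 3 h lay above both others.

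The other genes of elongation (29, all tested) included P-TEFb, its inhibitors and the super and little elongation complexes. From naive to 3 h, 8 rose (27.6%, against 21% of all tested genes) and 2 fell (6.90%, against 24.3%), with Dot1l the largest rise (1.66, SE 0.08) and Aff1 the largest fall (-1.35, SE 0.18). From 3 h to 10 h 3 fell (10.3%, against 13.4%), Hexim1 the most (-1.07, SE 0.08), and 0 rose (against 17.4%), with 1 at an unadjusted glmTreat p under 0.05 and 2 by DESeq2's Wald test. From 10 h to 33 h 2 rose (6.90%, against 10.1%), Eaf2 the most, and 0 fell (against 4.45%), with 0 at an unadjusted p and 5 by the Wald test. From 33 h to expanded Eaf2 alone rose (3.45%, against 6.94%) and 0 fell (against 3.66%), with 3 at an unadjusted p and 8 by the Wald test. From expanded cells to plasmablasts 1 rose, Eaf2 (3.45%, against 13.9%), and 3 fell (10.3%, against 12.2%), Aff3 the most (-2.21, SE 0.14). Between naive cells and plasmablasts 4 were higher (13.8%, against 26.6%) and 7 lower (24.1%, against 23.4%). The median log2 difference of the list was 0.45 at naive to 3 h and -0.39 at 3 h to 10 h, against -0.03 and 0.02 over all tested genes.

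A further 23 genes of the cleavage and polyadenylation machinery were all tested. From naive to 3 h 1 rose (4.35%, against 21% of all tested genes), Cpsf7 (0.80, SE 0.09). At an unadjusted glmTreat p under 0.05, 3 were higher, and by DESeq2's Wald test 12 were. By glmTreat 0 fell (against 24.3%), with 0 at an unadjusted p and 3 by the Wald test. The median log2 difference of the list was 0.41, against -0.03 over all tested genes. From 3 h to 10 h 2 rose (8.70%, against 17.4%), Cpsf6 the most (1.25, SE 0.09), and Cpsf7 alone fell (-0.84, SE 0.09), or 4.35% against 13.4%. At 10 h to 33 h and at 33 h to expanded, glmTreat called 0 genes at an adjusted or an unadjusted p, while the Wald test called 3 higher and 6 lower at the first and 2 higher and 5 lower at the second. From expanded cells to plasmablasts 4 fell (17.4%, against 12.2%), Scaf4 the most (-0.97, SE 0.11), and 0 rose by glmTreat at either p or by the Wald test, with a median of -0.41 over the list against -0.05 over all genes. Between naive cells and plasmablasts 1 was higher (4.35%, against 26.6%) and 7 lower (30.4%, against 23.4%). Cpsf6 and Cpsf7 encode alternative subunits of cleavage factor I.

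Of 20 splicing and RNA-binding regulators linked to Ighm or Ptprc processing, 19 were tested. From naive to 3 h 10 rose (52.6%, against 21% of all tested genes) and 2 fell (10.5%, against 24.3%), with Srsf7 the largest rise (3.50, SE 0.10) and Celf2 the largest fall (-0.94, SE 0.09). The median was 0.88, against -0.03 over all genes. From 3 h to 10 h 2 rose (10.5%, against 17.4%), Snrpa the most (0.95, SE 0.12), and 5 fell (26.3%, against 13.4%), Zfp318 the most (-2.07, SE 0.21). From 10 h to 33 h glmTreat called 0 at an adjusted or an unadjusted p, and DESeq2's Wald test called 7 higher and 1 lower. Into expanded cells Zfp318 alone fell (-2.39, SE 0.22), or 5.26% against 3.66%, and 0 rose by glmTreat at either p, with 2 by the Wald test. From expanded cells to plasmablasts 7 fell (36.8%, against 12.2%), Zfp318 the most (-1.37, SE 0.25), and 0 rose by glmTreat at either p or by the Wald test, with a median of -0.68. Between naive cells and plasmablasts 2 were higher (10.5%, against 26.6%) and 3 lower (15.8%, against 23.4%). Zfp318, which is known for the expression of IgD by alternative processing of the same locus, went from 32.2 and 33.5 RPKM in naive cells to 0.511 and 0.514 in plasmablasts.

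**Figure D5:**
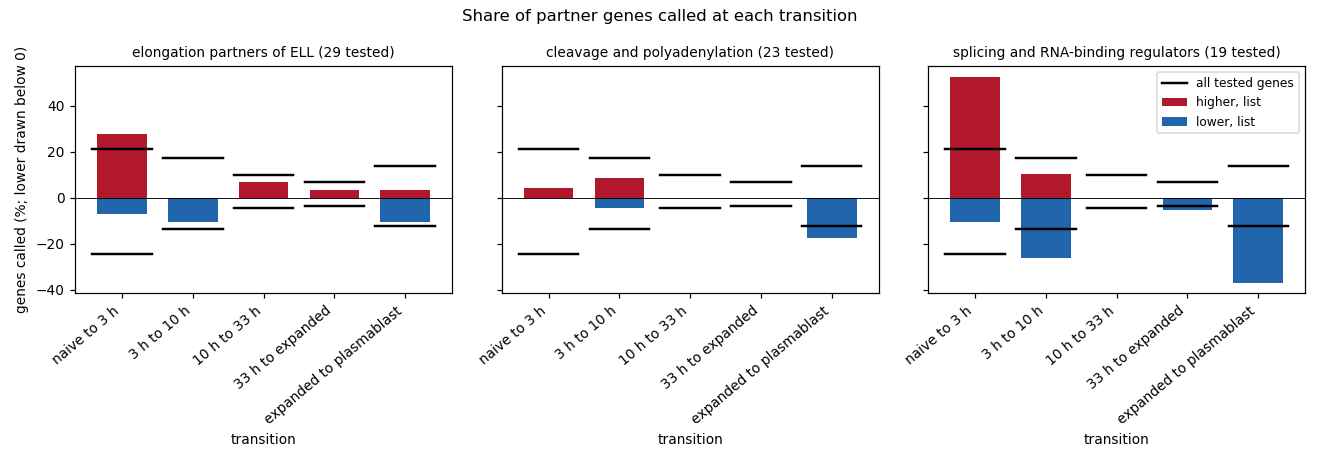
Share (%) of the genes of each list called higher (red, above 0) or lower (blue, below 0) at each consecutive transition, with black lines for the share over all tested genes. Splicing and RNA-binding regulators reach 52.6% higher at naive to 3 h and 36.8% lower at expanded to plasmablast, and the cleavage and polyadenylation genes have empty bars at 10 h to 33 h and 33 h to expanded, where glmTreat called 0.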

How the data were processed

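The deposited values are raw counts per Entrez gene, which the authors made by aligning 81 bp paired reads of TruSeq libraries to mm10 with Rsubread and counting them with featureCounts on its inbuilt annotation. They are neither normalized nor filtered, and the processing notes also name CASAVA 1.8.2. Each of the 12 per-sample tables was identical to its column in the series table. Whether strand was used, and whether a count is a read or a pair, was not given in the sources used here. Replicates differed by more than sampling noise at every stage, and most at 3 h and 33 h. IDs were matched to RefSeq for 25275 of 27179 genes. As in the study's methods, IDs with no entry (1904), mitochondrial genes (15), ribosomal RNA genes (33), X and Y genes (1279) and variable immunoglobulin segments (248) were removed, which left 84% to 90.6% of the counts, and edgeR's filterByExpr kept 12750 genes.

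Tests ran under R 4.3.3. The packages were edgeR 4.0.16, DESeq2 1.42.0 and, beneath edgeR, limma 3.58.1. TMM scaled the libraries, and all 12 entered a single robust quasi-likelihood fit by the method of earlier edgeR versions. glmTreat against 1.5-fold and the quasi-likelihood F-test were each adjusted with the Benjamini-Hochberg method over all genes tested, at 0.05. For Cstf2, the fit kept the removed genes. Levels are RPKM from the counts and the exon lengths in the table. Profile distances used log2 values with a prior count of 2, and confidence intervals are exact Poisson at 95%. The steps were tested on simulated data. The alternatives were DESeq2's size factors, library size alone, DESeq2's Wald test, no filter or at least 10 counts in every library, non-robust and newer dispersions, the 4 libraries compared alone, the removed genes kept, a term for the replicate number, leaving out each library, a prior count of 0.5 and profiles over the 12 libraries. The genes named are the 8 members at every comparison, the paralogues Cstf2t and Hnrnpl, Eaf1 and Eaf2, the called gene of each partner list with the largest rise and fall at each transition, the 3 genes nearest in profile to each member, and context genes that a result turns on. The members, lists and tests were chosen with earlier results of these data known. An item of the sorting gates is not reported here, and it was left out of the B cell marker sum.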

Additional observations from a re-analysis of the deposited data

How the results depend on the processing

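Counts of genes called out of 8 are given here, in the order of the 5 consecutive transitions and then naive to plasmablast, where they moved by over 1.5 times from 3, 2, 2, 3, 3 and 3. With no fold threshold they were 7, 5, 4, 5, 7 and 7 by the F-test and 7, 5, 4, 5, 6 and 7 by DESeq2's Wald test. With at least 10 counts in every library, which drops Ell3 and Hnrnpll, they were 1, 0, 1, 1 and 1 from 3 h to 10 h onwards. Library size alone gave 5 for expanded to plasmablast and 5 for naive to plasmablast, and moved the median log2 difference of all tested genes to -0.24, 0.35, -0.38 and -0.26 at naive to 3 h, 3 h to 10 h, expanded to plasmablast and naive to plasmablast. From 3 h to 10 h, DESeq2's size factors, the newer dispersions and the 4 libraries alone gave 1. Leaving out a library gave 1 to 2 from 3 h to 10 h and 0 to 3 from 33 h to expanded, with 0 without the first library at 33 h. Library size alone kept the order of stages for 3 genes. Over the 12 libraries, 15 of the 24 nearest genes were shared with the choice over stages.

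Differences that were not called changed sign in 8 cases, given as log2 values. Under library size alone these were Ell from expanded to plasmablast (-0.19), Cstf2 from 3 h to 10 h (0.25) and Cstf3 from 3 h to 10 h (0.30). With a library left out they were Ell3 from 3 h to 10 h (-0.0023 to 0.42), Cstf3 from 3 h to 10 h (-0.11 to 0.076), Pcf11 from 10 h to 33 h (-0.12 to 0.00038) and Hnrnpll from naive to 3 h (-1.62 to 0.22). The cause was not tested.

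No pairing by replicate number was seen, as 0 of the 15 correlations between deviations of same-numbered libraries were over 0.1 (-0.14 to 0.084). The highest was between expanded cells and plasmablasts. These correlations cannot tell whether libraries share a culture or a mouse. With a replicate block the counts were 3, 2, 2, 3, 3 and 4, Pcf11 from naive to plasmablast being added (-0.78, glmTreat adjusted p = 0.042), and no other call changed. Each stage has 2 libraries, and counting error limits the values of Ell3 in plasmablasts (9 and 13 counts) and of Hnrnpll up to 3 h (5 to 25 counts).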
